A study of Mus musculus with 3 samples.

Results

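The Schlafen genes studied here are 7 protein-coding genes of the cluster on mouse chromosome 11: Slfn1, Slfn2, Slfn3, Slfn4, Slfn5, Slfn8 and Slfn9. They were chosen by gene symbol and genomic position and not by their levels, though with earlier results of these data known. They make up 7 of the 26655 genes in the expression values. RNA was sequenced from G-MDSCs, the granulocytic class of myeloid-derived suppressor cells. These neutrophil-like cells expand in tumor-bearing animals and can restrain T cells. The cells came from the blood of normal C57BL/6J mice, of C57BL/6J mice 2 weeks after implantation of a B16F10 tumor (2Ws) and of C57BL/6J mice 3 weeks after it (3Ws). B16F10 cells derive from a melanoma of the same strain and were placed under the skin of adult mice. No genetic change or drug was part of these 3 conditions. The labels describe the cells as CD11b+Gr1+, and the study's methods separate G-MDSCs with beads against Ly6G. Each condition has 1 library, and the number of mice behind a library is not given in the sources used here.

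Schlafen proteins are a vertebrate family named for the growth arrest that the first member caused in mouse thymocytes. Many of the genes are induced by type I interferon (IFN-I), and several members act on RNA, by cleaving transfer RNA or by shielding it, and so alter translation. Mouse members fall into a short class (Slfn1 and Slfn2), an intermediate class (Slfn3 and Slfn4), and a long class (Slfn5, Slfn8 and Slfn9) that adds a helicase-like region and a signal for entry into the nucleus. In mice, Slfn2 is needed to keep T cells and monocytes quiescent, and Slfn4 marks the suppressor cells that arise in the Helicobacter-infected mouse stomach.

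The library totals recovered from the values were 17325747, 16549246 and 17075753 reads for the normal, 2Ws and 3Ws libraries. The reads recovered for all genes sum to 106% of the total in each library, so the totals serve as scale factors. These values are FPKM, the fragments of a gene scaled to the length of its exons and to the size of the library. Read numbers came out whole for all 7 Schlafen genes and for 88.7% of the genes above 0, within 0.001 of a whole read. Intervals below are 95% intervals of counting error only. They leave out the differences between mice and between preparations, and with 1 library per condition no test between conditions was possible. S100a8 and S100a9, the 2 highest of the 13 neutrophil genes given below, were at 8385 to 14548 and at 24594 to 37319 FPKM. The 2Ws library stood apart by sex: Xist, the RNA of the inactive X chromosome, was at 24.7 FPKM at 2Ws, against 0.00966 FPKM in normal mice and 0 at 3Ws, and the Y-linked Ddx3y was at 0 FPKM at 2Ws, against 19.9 FPKM in normal mice and 23.1 FPKM at 3Ws. By these genes the normal and 3Ws libraries read as male, while the methods name female mice for tumor implantation. Sex and 2 weeks of tumor cannot be told apart in any value of the 2Ws library below.

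Schlafen RNA was abundant in all 3 libraries and mostly came from 3 of the 7 genes. The summed level of the 7 genes was 3875 FPKM in normal mice, 2632 FPKM at 2Ws and 3089 FPKM at 3Ws, which is 1.23%, 0.843% and 0.963% of all FPKM. In reads, the family took 214811, 128014 and 155499 of each library. Slfn4 alone gave 55.2%, 45.7% and 48.9% of the Schlafen FPKM, and Slfn4, Slfn1 and Slfn2 together gave 93.9%, 95% and 96.8%. The family thus fell into 3 tiers of level: Slfn4, Slfn1 and Slfn2 at 622 FPKM or more, Slfn5 and Slfn8 between 47.1 and 133 FPKM, and Slfn9 and Slfn3 under 5 FPKM.

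Slfn4 led the family in every library and ranked 12th, 19th and 16th among all genes of the normal, 2Ws and 3Ws libraries. The next places changed hands. Slfn1 (766 FPKM) was above Slfn2 (734 FPKM) in normal mice, whereas Slfn2 was above Slfn1 at 2Ws (675 and 622 FPKM) and at 3Ws (811 and 666 FPKM), each time with intervals that did not overlap. Slfn5 (133 FPKM) was above Slfn8 (95.5 FPKM) in normal mice. Both were at 64.0 FPKM at 2Ws, and at 3Ws Slfn5 was 1.06-fold above Slfn8 (1.01 to 1.11). Slfn9 and Slfn3 stood last. Slfn9 was 1.72-fold above Slfn3 in normal mice (1.43 to 2.08) and 2.12-fold at 2Ws (1.61 to 2.83), while at 3Ws they were at 1.5 and 1.55 FPKM.

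**Figure D1:**
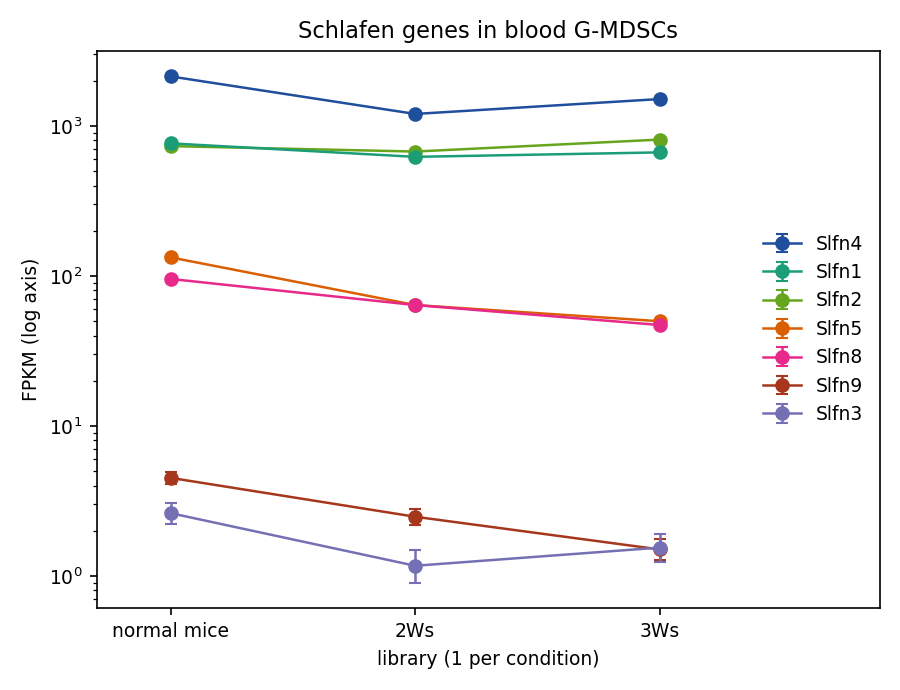
Level of each Schlafen gene in FPKM (log axis) in the libraries of normal mice, 2Ws and 3Ws, 1 library per condition, with 95% counting intervals as bars, most of them smaller than the points. Slfn4, Slfn1 and Slfn2 stay at 622 FPKM or more, Slfn5 and Slfn8 meet at 64.0 FPKM at 2Ws, and Slfn9 and Slfn3 stay under 5 FPKM.

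The 3 long genes had the same order of conditions, with the highest level in normal mice and the lowest at 3Ws. Slfn5, a nuclear protein that in human cells is induced by IFN-I, was at 133 FPKM in normal mice, 64.0 FPKM at 2Ws and 49.9 FPKM at 3Ws, with 14580, 6702 and 5391 reads. Its level was 2.08-fold lower at 2Ws (interval 2.02 to 2.14) and 2.67-fold lower at 3Ws (2.58 to 2.75) than in normal mice. It ranked 333 among all genes of the normal library, 780 in the 2Ws library and 980 in the 3Ws library.

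Slfn8, a long member with the helicase-like region, was at 95.5 FPKM in normal mice, 64.0 FPKM at 2Ws and 47.1 FPKM at 3Ws. The gene was 1.49-fold lower at 2Ws (1.44 to 1.55) and 2.03-fold lower at 3Ws (1.95 to 2.11) than in normal mice. Slfn9, the nearest to it in coding sequence among the 7 genes, was at 4.51, 2.48 and 1.5 FPKM in that order, with 466, 245 and 153 reads. Slfn9 was 1.82-fold lower at 2Ws (1.55 to 2.13) and 3.00-fold lower at 3Ws (2.5 to 3.63). By ratio Slfn9 was thus the most reduced of the 7 genes at 3Ws, from few reads, and its interval contains that of Slfn5.

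The 2 short genes stayed close to their level in normal mice. Slfn2 was at 734 FPKM in normal mice, 675 FPKM at 2Ws and 811 FPKM at 3Ws, which is 1.09-fold lower at 2Ws (1.07 to 1.11) and 1.11-fold higher at 3Ws (1.09 to 1.13) than in normal mice. It alone of the 7 genes was above normal in a tumor library. Slfn1, the founding member that slows thymocyte growth when overexpressed, was at 766, 622 and 666 FPKM. Its level was 1.23-fold lower at 2Ws (1.21 to 1.25) and 1.15-fold lower at 3Ws (1.13 to 1.17). These genes had 18591 to 24728 reads per library, so counting error was small beside these shifts, whereas the spread between mice was not measured.

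The 2 intermediate genes were lowest at 2Ws, as the 2 short genes were, but with larger drops. Slfn4 was at 2140 FPKM in normal mice, 1202 FPKM at 2Ws and 1512 FPKM at 3Ws, with 146958, 78877 and 102312 reads. This was 1.78-fold lower at 2Ws (1.76 to 1.80) and 1.42-fold lower at 3Ws (1.40 to 1.43) than in normal mice. Slfn3, which in rodents is tied to the differentiation of intestinal epithelium, was at 2.62, 1.17 and 1.55 FPKM, with 155, 66 and 90 reads. Slfn3 was 2.24-fold lower at 2Ws (1.67 to 3.04) and 1.7-fold lower at 3Ws (1.30 to 2.23). Its FPKM ratio at 2Ws passed 2-fold, but the ratio of FPKM + 1 did not (log2 -0.74), since 1 FPKM is a large addition at this level.

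Set against 2Ws, the 3Ws library held less of the long genes and more of the others. Slfn5 was at 0.780 of its 2Ws level (0.752 to 0.808), Slfn8 at 0.736 (0.703 to 0.770) and Slfn9 at 0.605 (0.491 to 0.744). Slfn4 was 1.26-fold higher at 3Ws than at 2Ws (1.25 to 1.27), Slfn2 1.2-fold higher (1.18 to 1.23) and Slfn1 1.07-fold higher (1.05 to 1.09). Slfn3 was at 1.32-fold with an interval that includes no difference (0.951 to 1.84). The median of all genes was -0.16 here on the log2 scale. Relative to it, Slfn5 stood at -0.19, Slfn8 at -0.27, Slfn9 at -0.31 and Slfn1 at 0.26. None of the 7 genes was 2-fold lower or higher at 3Ws than at 2Ws, where 7.37% of the 11119 genes tested were lower and 2.00% higher, 9.37% in all. Of the genes that were 2-fold lower or higher, 21.3% were on the higher side, and 35.2% when taken relative to the median.

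A gene was counted as lower or higher when the ratio of FPKM + 1 was at least 2-fold and the gene reached 1 FPKM in 1 of both libraries, a filter that all 7 Schlafen genes passed in every comparison. At 2Ws, 1 of 7 Schlafen genes was lower than in normal mice (Slfn5, log2 ratio -1.04), where 1.22% of the 11269 genes tested were lower. At 3Ws, 3 of 7 were lower (Slfn5 at -1.40, Slfn9 at -1.14 and Slfn8 at -1.0), where 7.89% of 11103 genes were lower. No Schlafen gene was counted as higher in either comparison, where 1.29% and 2.60% of all genes were. Nearest outside the limit were Slfn4 at 2Ws (-0.83) and Slfn3 at 3Ws (-0.51). Both comparisons share the library of normal mice.

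The median log2 ratio of the 7 genes was -0.66 at 2Ws and -0.51 at 3Ws, while the median of all genes that reached 1 FPKM on both sides was -0.00051 at 2Ws and -0.18 at 3Ws. All 7 genes had a ratio below 1 at 2Ws, where 49.9% of the genes tested did. At 3Ws, 6 of 7 did, where 70.2% of the genes tested did, so that the lower side was the common one there. When the 3Ws ratios were taken relative to the median of all genes, 1 of 7 Schlafen genes was counted as lower, Slfn5 (-1.21). Of the 11103 genes tested, 553 were then lower. Slfn9 (-0.96) and Slfn8 (-0.82) were not counted. Of the genes counted as lower or higher, the share that was higher was 42.9%, against 24.8% without this step. Slfn2 then stood at 0.33 and Slfn1 at -0.02 at 3Ws. Of 8 housekeeping genes, 2 were lower at 3Ws without this step (Ppia and Rplp0), where 7.89% of all genes were. The ratio was below 1 in 7 of the 8, with a median log2 ratio of -0.53. Among them, the actin gene Actb was at 2694, 2519 and 2538 FPKM in the normal, 2Ws and 3Ws libraries.

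The 3 genes with the lowest ratios at 3Ws lie side by side. The cluster spans 264 kb, chr11:82951349-83215154 of GRCm38, and begins with the 3 long genes: Slfn5 (chr11:82951349-82964840, plus strand), Slfn9 (chr11:82978390-82991830, minus strand) and Slfn8 (chr11:83002158-83020810, minus strand). Then follow, all on the plus strand, Slfn2 (chr11:83065112-83070678), Slfn1 (chr11:83116849-83122670), Slfn4 (chr11:83175186-83190216) and Slfn3 (chr11:83191330-83215154). The lowest 3Ws ratios thus lay at one end of the cluster, ratios near 1 in its middle, and Slfn4 and Slfn3 lay between them in ratio at the other end. Without pseudocount, the log2 ratios of Slfn4 and Slfn3 were -0.50 and -0.76. Level did not follow position, since Slfn3, the direct neighbour of Slfn4, gave 0.0444% to 0.0677% of the Schlafen FPKM.

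**Figure D2:**
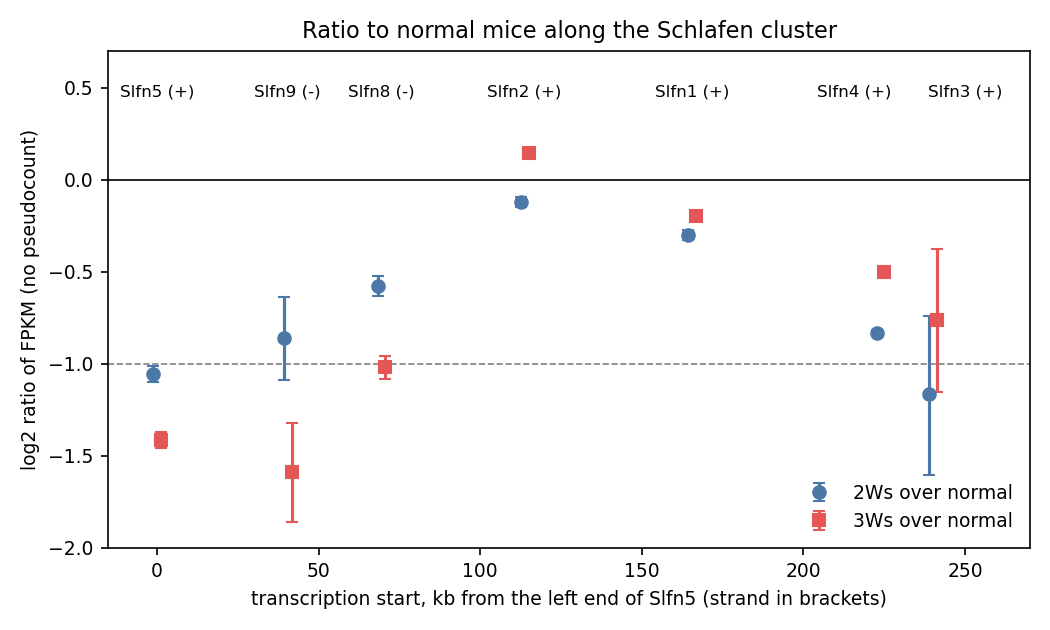
Log2 ratio of FPKM without pseudocount, 2Ws over normal (circles) and 3Ws over normal (squares), for each Schlafen gene at its start site, in kb from the left end of Slfn5, with 95% counting intervals as bars and 1 library per condition. The dashed line marks 2-fold lower. The 3 long genes at the left are lower at 3Ws than at 2Ws, and the 4 genes at the right lie higher at 3Ws than at 2Ws.

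Other annotated genes of this locus were measured as well. Slfn10-ps, a transcribed Schlafen pseudogene between Slfn8 and Slfn2, was at 2.74 FPKM in normal mice, 1.80 FPKM at 2Ws and 2.04 FPKM at 3Ws. This is 1.52-fold lower at 2Ws (1.19 to 1.95) and 1.35-fold lower at 3Ws (1.06 to 1.71). Slfn14, a further Schlafen gene beyond Slfn3 that is known from platelets and red cells, had 2, 10 and 2 reads. Slfn5os, antisense to Slfn5, had 4, 2 and 0 reads, and Slfnl1, a distant relative on chromosome 4, had 0, 1 and 0 reads. Gm20234, antisense to Slfn2, was at 24.5, 13.9 and 21.2 FPKM. Strand use in counting is not stated, and reads of Slfn2 and of this overlapping gene cannot be told apart. The protein-coding neighbours Nle1 and Unc45b on the Slfn5 side were at or under 1.00 FPKM.

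Close copies could share reads, and how reads that match several places were treated is not given in the sources used here. The coding sequences of Slfn3 and Slfn4 were 93.2% identical over 1770 aligned bases, and those of Slfn8 and Slfn9 were 92.7% identical over 2730. Slfn5 was 71.4% identical to Slfn9, and the short genes Slfn1 and Slfn2 were 76.1% identical. Coding length without the stop codon was 1011 bases for Slfn1, 1134 for Slfn2, 1806 for Slfn4, 1920 for Slfn3, 2652 for Slfn5 and 2730 for both Slfn8 and Slfn9. Of all stretches of 50 bases in its transcripts, Slfn5 shared none with another Schlafen transcript, Slfn1 shared 0.606%, Slfn2 4.27%, Slfn3 7.39%, Slfn4 8.15%, Slfn9 11.2% and Slfn8 14.6%. Values of Slfn3 and Slfn9 are the most exposed, since each has a close copy at a far higher level. Both Slfn8 (10.1%) and Slfn9 (8.10%) shared the most stretches with the pseudogene Slfn10-ps. With Slfn8 and Slfn9 summed, the log2 ratio was -0.58 at 2Ws and -1.03 at 3Ws, and Slfn10-ps was not part of this sum.

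The start regions of the 7 genes were searched for the core of the interferon-stimulated response element, which reads GAAA, any 2 bases and GAAA again on either strand, the element through which IFN-I induces many genes. The windows, from RefSeq with build GRCm38.p6, run from 250 bases before the annotated start to 50 bases after it. For Slfn5 that start lies inside the gene span given above. Slfn5, Slfn9 and Slfn8 each held a match, and Slfn2, Slfn1, Slfn4 and Slfn3 held none. The match began 155 bases before the start of Slfn5, 45 before that of Slfn9 and 48 before the outer of the 2 annotated starts of Slfn8. The 3 genes with a match are the 3 counted as lower at 3Ws. Relative to the median of all genes, Slfn5 alone was still counted there. At 2Ws, Slfn4 (-0.83) and Slfn3 (-0.74), without a match, had lower log2 ratios of FPKM + 1 than Slfn9 (-0.66) and Slfn8 (-0.57). The last 200 bases before the start of Slfn5, Slfn9 and Slfn8 are shown because they carry these matches. The bases are written 5′ to 3′ along the gene with the match in capitals. They are chr11:82951902-82952101 (plus strand), chr11:82991831-82992030 (minus strand) and chr11:83020811-83021010 (minus strand).
Slfn5: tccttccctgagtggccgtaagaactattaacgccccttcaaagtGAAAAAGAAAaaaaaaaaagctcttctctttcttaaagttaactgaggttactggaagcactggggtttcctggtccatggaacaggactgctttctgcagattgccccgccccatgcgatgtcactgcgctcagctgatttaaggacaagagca
Slfn9: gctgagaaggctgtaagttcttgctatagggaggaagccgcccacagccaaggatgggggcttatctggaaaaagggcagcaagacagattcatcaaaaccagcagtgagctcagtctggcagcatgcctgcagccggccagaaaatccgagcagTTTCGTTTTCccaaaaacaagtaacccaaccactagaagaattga
Slfn8: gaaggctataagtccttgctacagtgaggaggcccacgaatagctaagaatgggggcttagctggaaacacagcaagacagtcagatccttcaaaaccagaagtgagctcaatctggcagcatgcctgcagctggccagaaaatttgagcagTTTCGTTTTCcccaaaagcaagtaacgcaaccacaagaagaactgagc

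Slfn9 and Slfn8 carry the same letters, TTTCGTTTTC, which read GAAAACGAAA on the opposite strand, and their windows were 85.9% identical over 241 aligned bases. Slfn5 has GAAAAAGAAA on the gene strand, at the head of a run of A. A match was present in 3.44% of the 32851 mouse promoter windows of this length, in 3.64% of those of genes that reached 1 FPKM, and in 13 of the 23 windows of the other interferon-stimulated genes (ISGs) listed below. Across genes that reached 1 FPKM and have a window, 49 of 332 with a match were at least 2-fold lower at 3Ws (14.8%), and so were 468 of 7344 without one (6.37%). At 2Ws these were 8 of 341 (2.35%) and 25 of 7474 (0.334%). These counts leave out the 7 Schlafen genes and hold the other ISGs. Without those ISGs the shares were 13.1% and 6.32% at 3Ws, and 0.912% and 0.295% at 2Ws. The gamma-activated site, TTCNNNGAA, an element of interferon-gamma responses, was in no Schlafen window and in 8.30% of all windows. A match describes letters in the window and not binding.

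The other 4 genes shared a different short word. The letters AGGAAGT, a core bound by PU.1 and related factors of myeloid cells, were found on either strand in the windows of Slfn2, Slfn1, Slfn4 and Slfn3, and in none of the long genes. This motif was chosen after the windows had been seen. It was present in 9.35% of all windows, and began 55 bases before the start in Slfn2, 74 in Slfn1, 73 in Slfn4 and 59 and 42 in Slfn3. Of the genes outside the family with this word, 8.64% were 2-fold lower at 3Ws, and 6.47% of those without it. At 2Ws these shares were 0.943% and 0.350%. No Schlafen window held both this word and the response element. The last 200 bases before the start of the pair with the most alike positions are shown, with ACTTCCT, the word on the opposite strand, in capitals, at chr11:83174986-83175185 and chr11:83116620-83116819 (both plus strand).
Slfn4: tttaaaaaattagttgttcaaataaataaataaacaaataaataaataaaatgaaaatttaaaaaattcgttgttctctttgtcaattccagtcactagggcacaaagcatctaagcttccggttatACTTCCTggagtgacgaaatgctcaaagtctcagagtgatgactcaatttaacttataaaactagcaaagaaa
Slfn1: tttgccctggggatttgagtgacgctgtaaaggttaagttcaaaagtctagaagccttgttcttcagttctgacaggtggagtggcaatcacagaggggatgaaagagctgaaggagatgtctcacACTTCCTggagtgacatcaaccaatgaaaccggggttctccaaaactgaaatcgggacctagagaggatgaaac

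In both genes the capitals run on into ggagtgac, and the surrounding bases differ. Both genes were among the top 3 of the family in level, but Slfn3, with 2 such words, was at 1.17 to 2.62 FPKM.

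Many other ISGs were lower in the tumor libraries too. Of 27 measured ISGs outside the family, 9 passed the 2-fold limit downward at 2Ws, where 1.22% of all genes did, and 13 at 3Ws, where 7.89% did. None was higher, where 1.29% and 2.60% of all genes were. The median log2 ratio was -0.75 at 2Ws and -0.96 at 3Ws, or -0.78 at 3Ws relative to the median of all genes. Ifit2, which binds viral RNA ends and blocks translation, was at 69.4, 15.2 and 8.17 FPKM in the normal, 2Ws and 3Ws libraries, and Ifit3b of the same gene family was at 118, 52.4 and 23.6 FPKM. Other members stayed near their level in normal mice, as Slfn1 and Slfn2 did. Oasl2, a relative of the RNA-sensing 2′-5′ oligoadenylate synthetases, was at 371, 303 and 313 FPKM, and Trim30a, a ubiquitin ligase that dampens inflammatory signaling, was at 280, 234 and 354 FPKM. The list was assembled with ISGs that the study names from these libraries among them, and its direction is not independent evidence.

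The receptor, its relay and the regulators of IFN-I signaling were read in the same way. None of the 7 genes for the IFN-I receptor and its JAK-STAT relay was 2-fold lower or higher in either tumor library, where 2.50% of all genes were at 2Ws and 10.5% at 3Ws, with medians of -0.20 at 2Ws and -0.27 at 3Ws. Irf9, the DNA-binding part of the complex that IFN-I activates, was at 54.0, 46.2 and 44.6 FPKM, and the kinase Jak1 was at 106, 110 and 115 FPKM. Of 6 interferon regulatory factors, 1 was lower at 2Ws and 3 at 3Ws, beside the 1.22% and 7.89% of all genes. Irf7, the factor that amplifies IFN-I production, was at 152, 72.3 and 52.8 FPKM, with log2 ratios (-1.06 at 2Ws and -1.51 at 3Ws) near those of Slfn5. Of 7 negative regulators, 1 was lower at 2Ws and 1 at 3Ws, beside the 1.22% and 7.89% of all genes. Their median log2 ratio was -0.07 at both times. The lower gene was Usp18, which blocks the receptor after induction by IFN-I (36.4, 16.7 and 11.1 FPKM). Socs3, a feedback inhibitor of cytokine receptors, was higher at 3Ws (338 FPKM) than in normal mice (166 FPKM), where 2.60% of all genes were higher.

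Genes that restrict RNA or translation, as several Schlafen proteins do, stayed within the limit. Of 9 measured, 0 were 2-fold lower and 0 higher in either tumor library. The background is 2.50% of genes at 2Ws and 10.5% at 3Ws in either direction. With 9 genes, counts of 0 lie near these shares and do not set the list apart. The median log2 ratios were -0.13 at 2Ws and -0.20 at 3Ws. Isg20, an interferon-induced exonuclease, was at 46.9, 28.0 and 29.3 FPKM in the 3 libraries in the same order. Samd9l, which halts translation, was at 113, 114 and 142 FPKM.

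**Figure D3:**
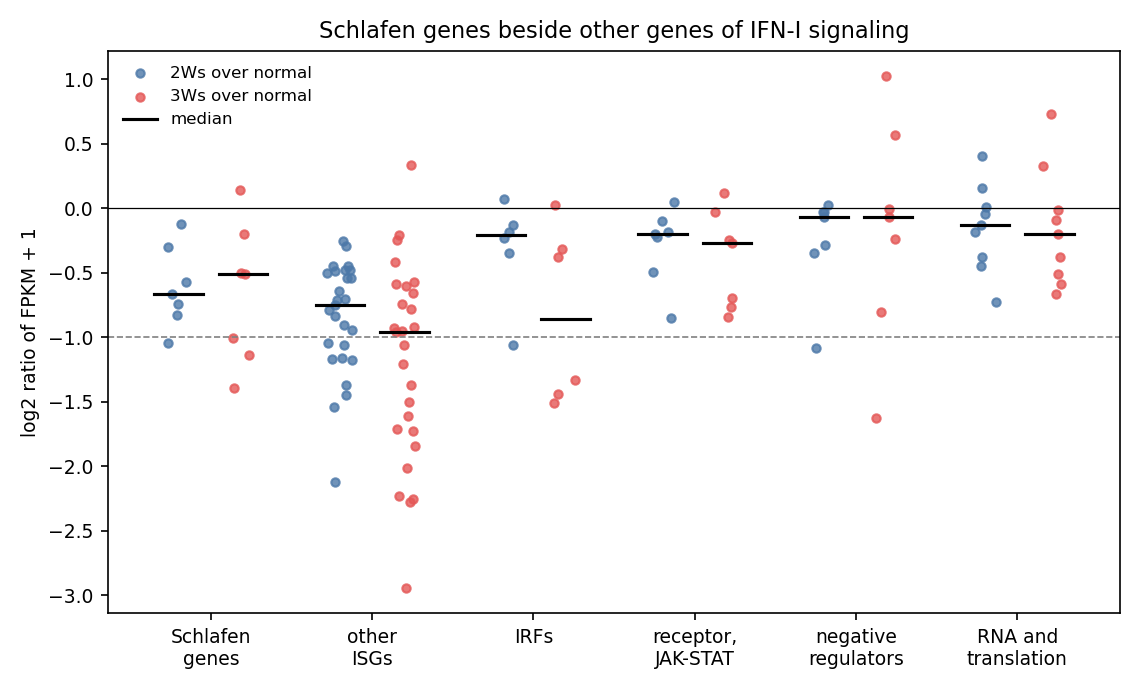
Log2 ratio of FPKM + 1 to normal mice for the Schlafen genes and for lists of genes of IFN-I signaling, 1 point per gene that reached 1 FPKM in 1 of both libraries, 2Ws on the left and 3Ws on the right of each list, with the median as a bar and 2-fold lower as a dashed line. The Schlafen medians are -0.66 at 2Ws and -0.51 at 3Ws, those of the other ISGs -0.75 and -0.96.

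Each Schlafen gene was set beside the genes whose pair of log2 ratios to normal lay nearest, among 6292 named genes outside the family that reached 5 FPKM in a library. With 2 ratios per gene from 3 libraries this is a loose measure. It uses FPKM + 1, which shrinks the ratios of low genes such as Slfn9 and Slfn3. On FPKM without pseudocount, the genes given here for Slfn9 ranked 7 to 46 in nearness and those for Slfn3 9 to 54, so their neighbours depend on this setting. Of those given for Slfn5, Mrc1 ranked 41, and of those for Slfn4, Gm5960 ranked 10 and Gm10964 ranked 12. The other genes named here ranked 1 to 10. Nearest to Slfn5 were Ltf, the iron-binding granule protein lactoferrin (626, 314 and 250 FPKM, distance 0.0915), Mrc1, the mannose receptor (distance 0.110), and Irf7 (distance 0.110). Just 8 genes lay within 0.2 of Slfn5. Nearest to Slfn8 were Tap1, the peptide transporter for MHC class I (71.5, 48.3 and 34.3 FPKM), Xaf1, an interferon-induced promoter of cell death, and Igtp, an interferon-induced GTPase. Nearest to Slfn9 were Ube2l6, the conjugating enzyme for Isg15 (12.9, 8.02 and 5.31 FPKM), the microtubule regulator Stmn1 and the purine salvage enzyme Aprt.

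The patterns of Slfn1 and Slfn2 were common ones, with 413 and 703 genes within 0.2. Slfn1 lay beside Bcl3, a nuclear partner of NF-kB, the lymphotoxin receptor Ltbr and AI839979, and Slfn2 beside 1700017B05Rik, Txnip, which binds thioredoxin, and the matrix gene Emilin2. Slfn4 and Slfn3, lowest at 2Ws as Slfn1 and Slfn2 were but with larger drops, had rarer patterns, with 6 and 10 genes within 0.2. Without pseudocount these numbers were 5 and 1. Slfn4 lay nearest to Gm5960 (distance 0.0725), Gm44954 and Gm10964, and Slfn3 to Gm44954 (distance 0.0621), Def8 and Parp10, an ADP-ribosyltransferase.

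**Figure D4:**
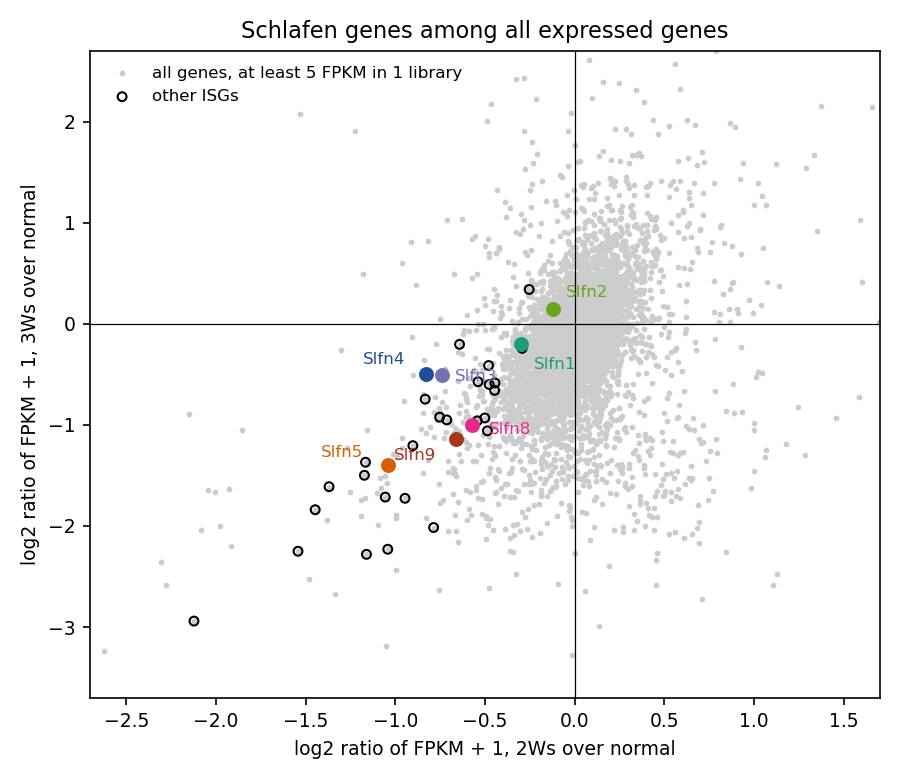
Log2 ratio of FPKM + 1 at 2Ws (x axis) and at 3Ws (y axis), each over normal mice, for genes with or without a name that reached 5 FPKM in a library, Schlafen genes included (gray, 6277 within and 24 outside the axes), the other ISGs among them (open circles) and the 7 Schlafen genes (colored). Both axes share the normal library. Slfn5, Slfn9 and Slfn8 lie at or below -1.0 on the y axis, Slfn4 and Slfn3 near -0.50, and Slfn1 and Slfn2 close to the origin.

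Markers of other cells moved with the libraries as well. The 11 monocyte and macrophage markers summed to 628, 513 and 241 FPKM in the normal, 2Ws and 3Ws libraries. Of these, 10 of 11 passed the 2-fold limit downward at 3Ws, where 7.89% of all genes did, and none was at 0. C1qa, a complement gene of macrophages, was at 150, 125 and 36.0 FPKM. The 8 B cell markers summed to 488, 629 and 111 FPKM, and 7 of 8 were lower at 3Ws. The 7 platelet markers summed to 110, 129 and 23.6 FPKM. The 8 T cell markers summed to 4.72, 7.89 and 3.35 FPKM and the 5 NK cell markers to 7.51, 6.85 and 11.1 FPKM, while the 13 neutrophil genes summed to 45895, 50199 and 68835 FPKM, most of it from S100a9 and S100a8. Over these 13 genes the median log2 ratio was 0.01 at 2Ws and 0.25 at 3Ws. At 2Ws 1 was lower (Camp), where 1.22% of all genes were. At 3Ws 2 were lower (Camp and Ltf) and 2 higher (Retnlg and Mmp8), where 7.89% and 2.60% of all genes were. Erythroid markers summed to 20.2, 8.54 and 97.0 FPKM, dendritic cell markers to 23.7, 12.1 and 2.04 FPKM and eosinophil markers to 23.5, 37.3 and 25.5 FPKM. Of the melanoma markers, Tyrp1 was at 0 in the normal and 2Ws libraries and at 0.0414 FPKM at 3Ws, and Pmel was at 1.33 to 2.66 FPKM. The long genes Slfn5, Slfn8 and Slfn9 were lowest in the library in which the monocyte and B cell markers were lowest. At 2Ws, where the long genes were also lower than in normal mice, the monocyte and macrophage sum was lower (513 and 628 FPKM). The B cell sum was higher there (629 and 488 FPKM). The part of these cells in the Schlafen values was not tested, and fewer cells of a type and less RNA per cell cannot be told apart in these bulk samples. Among the neutrophil genes, Camp, a granule gene, was at 743, 325 and 222 FPKM, and Retnlg, a secreted resistin-like protein, at 2863, 4188 and 7606 FPKM, and their part was likewise not tested.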

How the data were processed

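RNA from blood G-MDSCs was sequenced on an Illumina instrument as 1 library for each of normal mice, 2Ws and 3Ws. The authors aligned reads to GRCm38 with HISAT2 2.1.0, built the index with Bowtie2 2.2.3, and deposited the result as FPKM per Ensembl gene. For the annotation, the strand setting and multi-mapped reads, nothing is stated in the sources used here. Libraries were grouped by the weeks in their descriptions, although other labels give months. The normal library is numbered 1 in its title but 2 in its column name.

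Genes were named through GENCODE M21, which matched 26588 of 26655. Read numbers are the product of FPKM, summed exon length and a library total, the total being set so that they come out whole. Ratios are log2 of FPKM + 1, counted at 2-fold among genes with at least 1 FPKM in 1 of 2 libraries. Intervals of ratios are Clopper-Pearson and those of levels exact Poisson, at 95%. Depth limits the precision of Slfn3 and Slfn9. Named are all 7 members, the 2 highest and the 2 most changed genes of each list, the 3 nearest genes by ratio, the neighbours of the cluster, and Xist, Ddx3y and Actb as checks. Gm20234 falls outside this rule and was named for its overlap with Slfn2, after its values were seen. A few genes that the rule would name are not reported here. The members and lists were chosen with earlier results of these data known. Other settings tried were a pseudocount of 0.1 or 0.5, ratios relative to the median gene or to Actb, FPKM rescaled without mitochondrial, hemoglobin and immunoglobulin genes, a filter at 5 FPKM or none, limits of 1.5-fold and 4-fold, an exact binomial test on reads, and summed copies. Ratios and nearest genes without a pseudocount, and promoter counts without the ISGs, were added after seeing the data. Tools were scipy 1.17.1, pandas 2.3.3, matplotlib 3.10.9 and numpy 2.4.6 under Python 3.11.15, and the steps were tested on simulated data.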

Additional observations from a re-analysis of the deposited data

Results flagged for a closer look

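Slfn2 lay on opposite sides of its level in normal mice in the tumor libraries, with a log2 ratio of FPKM + 1 of -0.12 at 2Ws and 0.14 at 3Ws. Each side has 1 library, and the difference between them was not tested beyond counting error.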

How the results depend on the processing

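No paired analysis was possible because each condition has 1 library, and leaving out a library would remove a condition. Of 144 values of single Schlafen genes under an alternative, 1 changed sign: Slfn2 at 3Ws was at -0.02 against normal with Slfn1 and Slfn2 summed, by the construction of the sum. For the count of Schlafen genes lower at 2Ws, the main count of 1 became 2 with a pseudocount of 0.1 (Slfn3 added, at -1.10) and 0 relative to Actb (Slfn5 at -0.95). It became 4 with a 1.5-fold limit, where 374 of the 11269 genes tested were lower, and 0 with a 4-fold limit. For 3Ws against normal, 3 became 1 with centring and 0 with a 4-fold limit. With a 1.5-fold limit it stayed at 3, where 2622 of the 11103 genes tested were lower. A filter at 5 FPKM leaves out Slfn9, and Slfn8 was at -0.92 relative to Actb. Exact binomial tests on the reads, which compare 2 libraries and not conditions, left the Schlafen counts as they were.

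Counts over all genes moved as well, given here as lower and higher at 2Ws, at 3Ws, and at 3Ws against 2Ws. A pseudocount of 0.1 gave 263 and 275, 1943 and 459, and 1763 and 357. With 0.5, the lower counts were 1371 at 3Ws against normal and 1249 at 3Ws against 2Ws. Centring gave 553 lower at 3Ws against normal. A filter at 5 FPKM gave 45 and 40, 499 and 180, and 431 and 137. The 1.5-fold limit gave 374 and 396, 2622 and 714, and 2307 and 565, and the 4-fold limit 15 and 12, 66 and 39, and 92 and 28. The read test gave 48 and 31 at 2Ws, 179 higher at 3Ws against normal and 141 higher at 3Ws against 2Ws. Depth limits Slfn3 and Slfn9, and no value here measures the spread between mice.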
